A study of Homo sapiens with 3 samples.

Results

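The IRAK, TRAF6 and TAK1 complex is the relay that carries signals from Toll-like and interleukin-1 receptors to NF-kB and the stress-activated MAP kinases. As its members 10 genes were taken. They were the adaptor MYD88, the IRAK family members IRAK1, IRAK2, IRAK3 and IRAK4, and the ubiquitin ligase TRAF6. The others were the kinase TAK1 (gene MAP3K7) and its partners TAB1, TAB2 and TAB3. Every probe set that the platform annotation pairs with exactly 1 of the 10 genes was taken and is given separately. This gave 23 probe sets for 9 genes, among 54613 non-control probe sets and 19775 genes in all. IRAK4 had no probe set under this rule and was not analysed here. A further TAB1 probe set is annotated to a second gene as well and was left out.

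The cells were HT29, an established human colorectal adenocarcinoma line, transduced by lentivirus with a miR-146a expression construct (2 arrays, labelled replicates 1 and 2) or with an empty vector (1 array). Both groups therefore share the line, the medium and the lentiviral transduction. Whether the replicates were separate cultures is not stated, so p-values measure a spread between arrays that may be purely technical, and having 3 arrays limits all precision. Values are log2 signals made by RMA (background correction, normalization between arrays and one summary per probe set), so a difference of 1 is 2-fold.

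When a Toll-like or interleukin-1 receptor is engaged, MyD88 assembles with IRAK4, which activates IRAK1 and IRAK2. These recruit TRAF6, whose lysine-63-linked ubiquitin chains are bound by TAB2 and TAB3 and bring TAK1 to its substrates, the IKK complex and MAP kinase kinases. IRAK3, also called IRAK-M, restrains the relay, and in myeloid cells NF-kB induces miR-146a, which represses IRAK1 and TRAF6 and so closes a feedback loop.

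The microRNA that was introduced pairs with target transcripts mainly through its seed, bases 2 to 8 from the 5′ end. The mature sequences are shown because the seed is what defines which transcripts it can recognise. They are from RefSeq (GRCh38.p14) and written 5′ to 3′ with the seed in capitals. Of 2545 mature human sequences in that table, 3 carry this seed.
hsa-miR-146a-5p: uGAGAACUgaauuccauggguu
hsa-miR-146b-5p: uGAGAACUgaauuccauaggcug
hsa-miR-7153-5p: uGAGAACUgacaaaugugguagg
Over the 22 positions that they share, counted from the 5′ end, miR-146b-5p differs from miR-146a-5p by G18A and U21C, both outside the seed. The opposite arm of the same precursor has another seed.
hsa-miR-146a-3p: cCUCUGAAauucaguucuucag
Both arms are cut from 1 hairpin, at chr5:160485352-160485450 on the plus strand. It is shown here with the mature arms in capitals to place them in their natural precursor.
MIR146A hairpin: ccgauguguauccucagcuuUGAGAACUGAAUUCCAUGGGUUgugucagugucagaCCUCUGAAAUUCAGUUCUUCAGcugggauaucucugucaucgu
The construct's own sequence was not used here. The array has 2 probe sets annotated to MIR146A, and neither measures the mature microRNA: 238225_at read 5.03 and 5.23 in the miR-146a arrays against 4.82 in the vector array, and 232504_at read 2.79 and 2.82 against 2.96. They went in opposite directions and both lay below the median signal, so they do not check the labels.

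The 3 arrays had median log2 signals of 5.12 to 5.14. Of the 54613 probe sets, 27306 had an average signal (the mean of both group values) above the median of 5.13, and probe sets under this level are called dim below. Among those above it, 95% of probe sets differed by at most 0.272 between the 2 miR-146a arrays. All 9 colon epithelial markers listed were above the median, as were 2 of 4 measured leukocyte markers (CD14 and LYZ) and 3 of 7 fibroblast and endothelial ones, while PTPRC, the general leukocyte antigen, read 3.36 and 3.30 with miR-146a and 3.43 with the vector. Control probe sets at the 5′ ends of ACTB and GAPDH read lower in both miR-146a arrays than in the vector array, by -0.17 to -0.33, while those at the 3′ ends differed by -0.02 to 0.05. The part of this 5′ difference in the values below was not tested.

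Most of the 23 probe sets read within 1.2-fold of the vector array in at least 1 miR-146a array, and the exceptions were 1 probe set of TAB2 and 2 of the 4 of MAP3K7, all of them lower. As whole cultures were measured, fewer cells with a transcript and less of it per cell cannot be told apart. Of the 23 probe sets, 12 read below the vector array in each of the miR-146a arrays, 5 read above it in each and 6 did neither. Over all non-control probe sets, 28.9% read lower in both and 29.1% read higher in both. At least 1.2-fold lower in both arrays were these 3 of the 23 (4.37% of all probe sets), and at least 1.2-fold higher in both were 0 (3.87% of all probe sets). None was 1.5-fold apart in both arrays, lower (0.485% of all) or higher (0.293% of all).

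**Figure D1:**
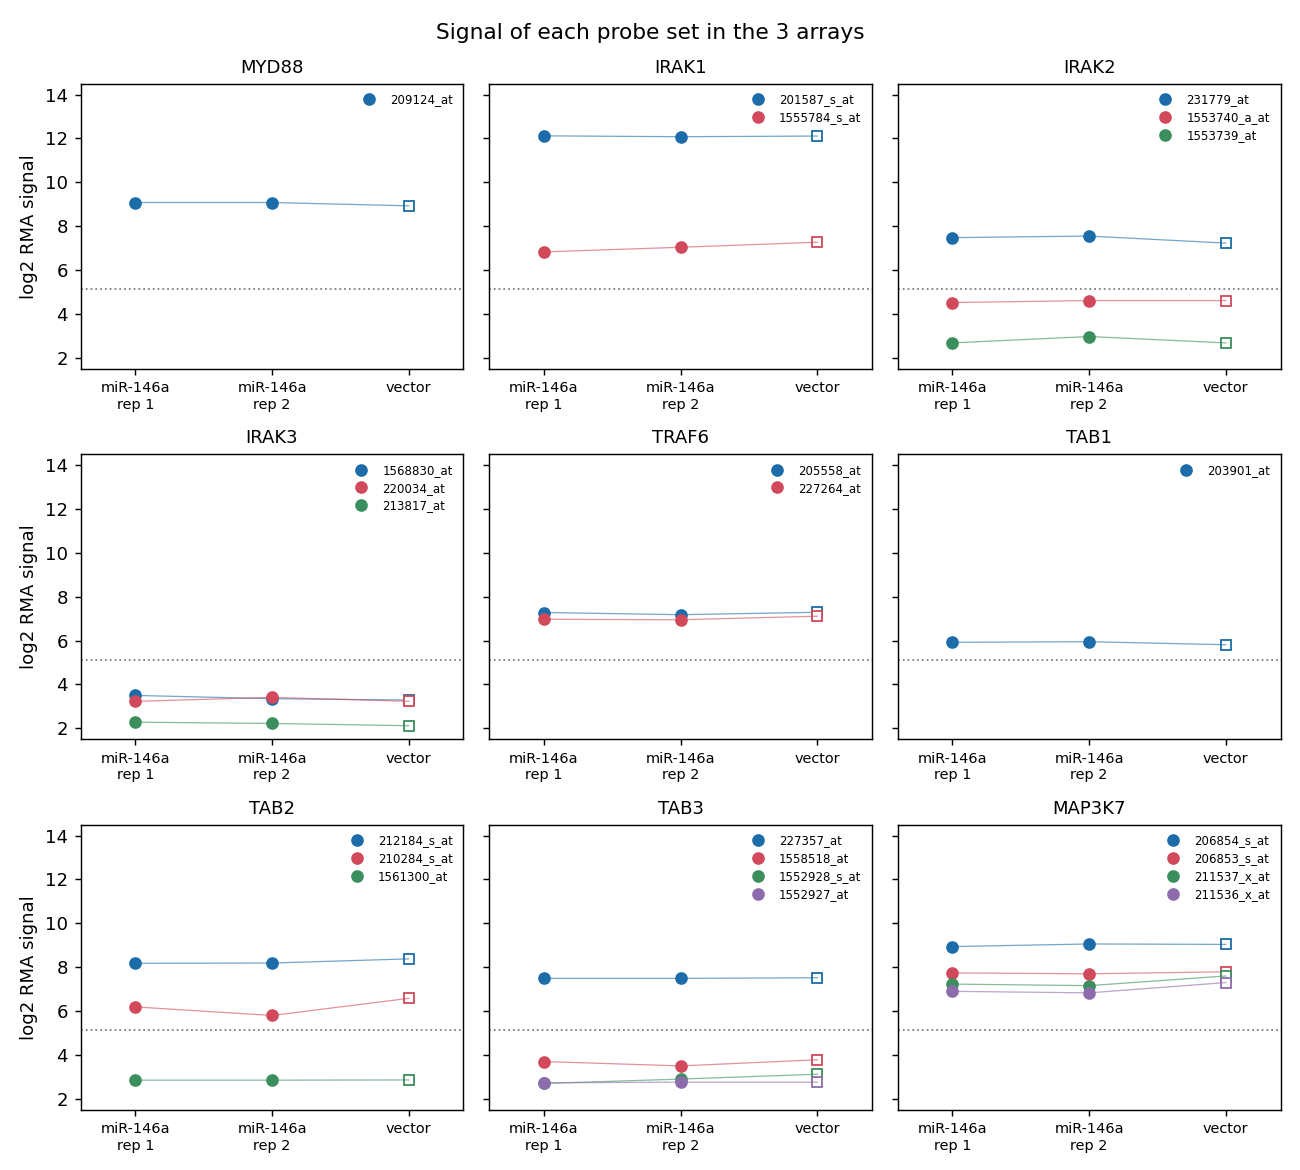
Log2 RMA signal of each of the 23 probe sets in the miR-146a replicate 1, miR-146a replicate 2 and vector arrays, 1 panel per gene; filled circles are miR-146a arrays, open squares the vector array, and the dotted line is the median signal of 5.13. All 3 probe sets of IRAK3 lie under the line, and the drop between vector and miR-146a arrays is visible by eye mainly for 1 probe set of TAB2 and 2 of MAP3K7.

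The test was limma across all 54613 probe sets, two-sided and with Benjamini-Hochberg adjustment. It called 0 of the 23 at an adjusted p of 0.05, with 0.0% of all probe sets called. At an unadjusted p under 0.05 it had 6 of the 23 (26.1%), 1 higher and 5 lower. Of all 54613 probe sets it had 20.2%, 5470 higher and 5588 lower. In this fit the variance rests on the 2 miR-146a arrays alone, whose values were exactly equal for 19.3% of probe sets. With the variance prior taken from probe sets whose replicates differ, 2 of the 23 passed, both lower (1.94% of all probe sets passed as lower and 1.38% as higher). With that prior and a fit on the probe sets above the median only, a setting chosen after the data were seen, 3 passed, again all lower (4.78% of those fitted passed as lower and 4.14% as higher). These 2 settings are called the unequal-replicate prior and its above-median version below. The limma p-values take the vector array, which has no replicate, to vary as the miR-146a arrays do. The fold counts set both miR-146a arrays against that 1 vector array, so an error in it enters both differences.

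MYD88 is the adaptor that links the receptors to the IRAK family. Its only probe set, 209124_at, read 9.08 in both miR-146a arrays, to the last digit deposited, and 8.93 in the vector array. That is a difference of 0.16 on the log2 scale, or 1.12-fold higher, in both arrays. The limma adjusted p was 0.0964, which was also the smallest that this fit gave among all 54613 probe sets. With the unequal-replicate prior it was 0.907, and the 95% interval ran from -0.11 to 0.43. MYD88 was the sole member with an unadjusted limma p under 0.05 in the higher direction.

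MYD88 is known as a gene that interferon can induce, and its promoter is shown for that reason, chosen after its values were seen. The sequence is RefSeq's, GRCh38.p14, chr3:38138411-38138710 on the plus strand, from 250 bases before to 50 after the annotated start, and the capitals mark the match to the core of the interferon-stimulated response element, searched on both strands as GAAA, any pair of bases, GAAA.
MYD88 promoter: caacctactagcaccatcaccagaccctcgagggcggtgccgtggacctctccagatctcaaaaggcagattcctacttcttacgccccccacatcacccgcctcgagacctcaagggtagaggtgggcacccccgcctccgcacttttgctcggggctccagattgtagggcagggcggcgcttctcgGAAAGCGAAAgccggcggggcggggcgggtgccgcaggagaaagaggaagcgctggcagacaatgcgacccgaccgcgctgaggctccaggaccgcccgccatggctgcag
Of 11 promoter windows for the 10 genes (TAB2 has a pair), only that of MYD88 held these letters, and 3.57% of all 35116 windows of the same length did. A match is a description of the sequence and no evidence of binding.

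IRAK1, the kinase that is a reported target of miR-146a, gave values that depended on the probe set. Probe set 201587_s_at read 12.12 and 12.08 in the miR-146a arrays against 12.11 in the vector array, so that the vector value lay between the replicates. Its difference was -0.01, and the 95% interval with the unequal-replicate prior ran from -0.28 to 0.26. Probe set 1555784_s_at read 6.83 and 7.04 in the miR-146a arrays against 7.27 in the vector array. Both arrays were lower here, by -0.45 and -0.24, for a mean of -0.34 or 1.27-fold lower in miR-146a cells. The limma adjusted p for this probe set was 0.538, then 0.196 with the unequal-replicate prior and 0.0638 in its above-median version, so it passed in none of the 3. Set against 201587_s_at within the same array, it differed by -0.46 in replicate 1 and -0.20 in replicate 2. The suffix _s_at marks probe sets whose probes match more than 1 transcript, and which IRAK1 transcripts each covers was not examined.

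IRAK2, a relative of IRAK1 that sustains signalling to TRAF6, was measured above the median by 1 of its 3 probe sets. That probe set, 231779_at, read 7.48 and 7.55 in the miR-146a arrays against 7.23 in the vector array, the highest difference among the 23 at 0.29 (1.22-fold higher). Its limma adjusted p was 0.259, against 0.364 with the unequal-replicate prior and 0.0909 in its above-median version. The dim probe set 1553740_a_at read 4.52 and 4.61 with miR-146a and 4.61 with the vector. The dim probe set 1553739_at read 2.68 and 2.97 with miR-146a and 2.68 with the vector. In each of these dim probe sets 1 miR-146a array held exactly the value of the vector array, so the IRAK2 difference rests on 231779_at.

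IRAK3, the inhibitory member of the family, which is best known from monocytes and macrophages, was dim throughout. Its 3 probe sets ran from 2.22 to 3.50 with miR-146a and from 2.12 to 3.29 in the vector array, all under the median of 5.13. The differences were 0.13 for 1568830_at, 0.09 for 220034_at and 0.13 for 213817_at. The arrays differed among themselves for 1568830_at (0.21 and 0.05) and for 220034_at (0.00 and 0.18), and the smallest limma adjusted p of the 3 was 0.469. No difference of IRAK3 was detectable at this signal.

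TRAF6, the ubiquitin ligase and other classical miR-146a target, read slightly lower in both of its probe sets. Probe set 205558_at read 7.28 and 7.18 in the miR-146a arrays against 7.29 in the vector array. Replicate 1 lay within 0.01 of the vector, and the gap of 0.10 between the miR-146a arrays was wider than the mean difference of -0.06. Probe set 227264_at read 6.97 and 6.95 in the miR-146a arrays against 7.11 in the vector array, with both arrays lower and a mean of -0.15, or 1.11-fold. Its limma adjusted p was 0.13, and 0.938 with the unequal-replicate prior, whose 95% interval ran from -0.42 to 0.12. With both probe sets averaged, the TRAF6 difference was -0.10.

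**Figure D2:**
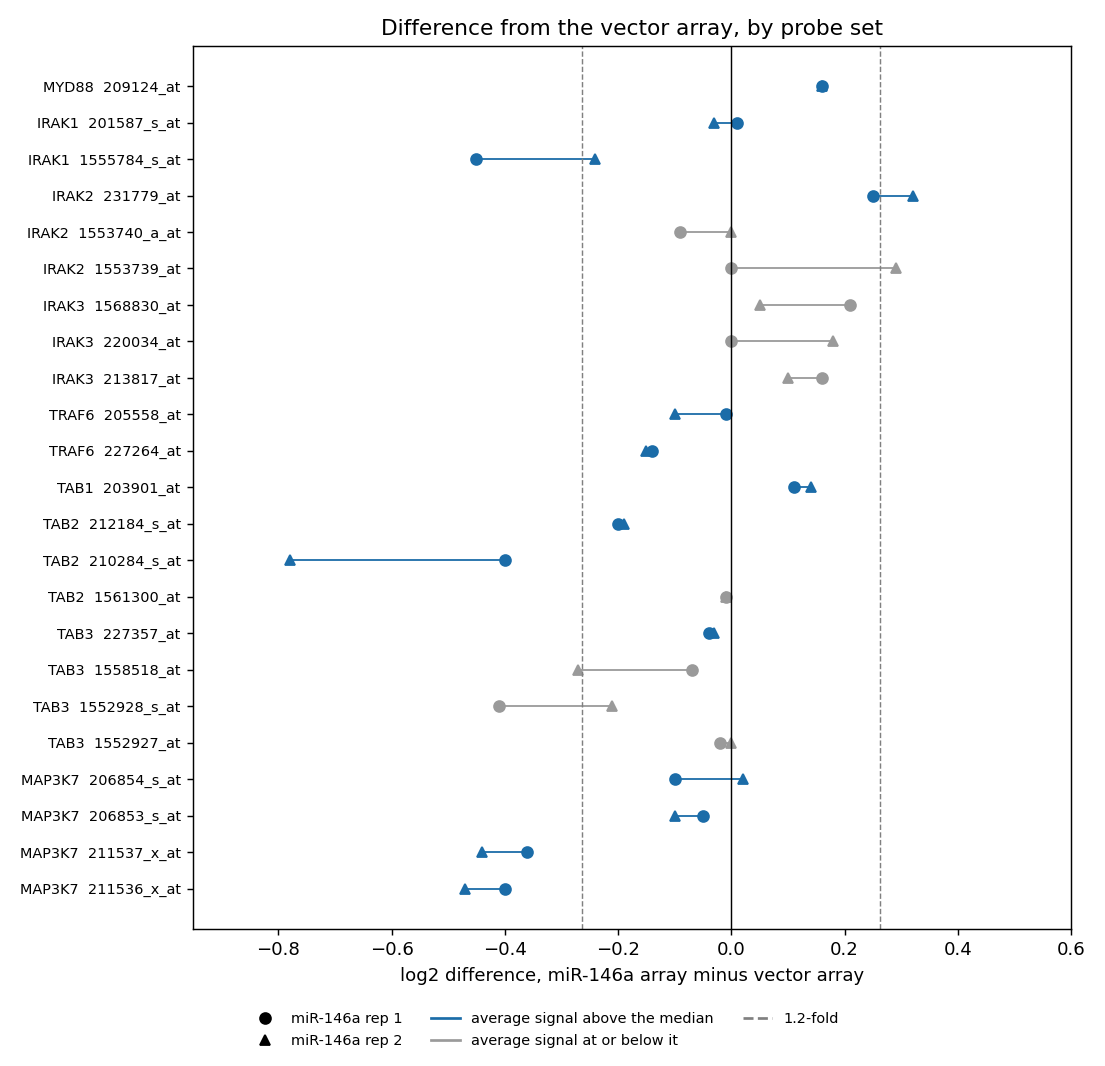
Log2 difference of each miR-146a array from the vector array for the 23 probe sets (circle, replicate 1; triangle, replicate 2; blue, average signal above the median; grey, dim); dashed lines mark 1.2-fold. TAB2 210284_s_at and the 2 _x_at probe sets of MAP3K7 are past the lower line in both arrays, while IRAK2 231779_at is past the upper line in replicate 2 only.

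TAB2, the adaptor that binds TRAF6's ubiquitin chains and tethers TAK1 to them, held the lowest difference of the 23. Probe set 210284_s_at read 6.19 and 5.80 in the miR-146a arrays against 6.58 in the vector array. Both arrays were lower, by -0.40 and -0.78, for a mean of -0.59 ± 0.27 (SD, n = 2), or 1.51-fold. The gap of 0.39 between the miR-146a arrays is wider than the 0.272 that holds 95% of probe sets above the median. By limma the adjusted p was 0.56, whereas with the unequal-replicate prior it was 0.00164 and in its above-median version 0.00889.

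The other TAB2 probe sets gave smaller values. Probe set 212184_s_at read 8.18 and 8.19 in the miR-146a arrays against 8.38 in the vector array, a difference of -0.19 (1.14-fold lower) with nearly equal replicates. Its limma adjusted p was 0.105, and 0.773 with the unequal-replicate prior. Dim probe set 1561300_at read 2.85 in both miR-146a arrays against 2.86 in the vector array. Above the median, TAB2 thus read lower in both arrays with both probe sets, which differed from each other by -0.20 in replicate 1 and -0.60 in replicate 2.

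TAB3, the X-linked paralog of TAB2 with the same role, was measured above the median by 227357_at. It read 7.49 in both miR-146a arrays against 7.52 in the vector array, a difference of -0.03. Of the dim probe sets, 1552928_s_at read 2.70 and 2.90 in the miR-146a arrays against 3.12 in the vector array, the lowest of them at -0.31. The dim 1558518_at read 3.70 and 3.50 against 3.78, a difference of -0.17. The dim 1552927_at read 2.73 and 2.76 against 2.76, and no TAB3 probe set passed limma or the unequal-replicate prior.

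TAB1, which binds TAK1 directly and promotes its autophosphorylation, had 1 probe set of its own. That probe set, 203901_at, read 5.92 and 5.95 in the miR-146a arrays against 5.81 in the vector array. Both arrays were higher, by a mean of 0.12 or 1.09-fold, with a limma adjusted p of 0.293. The probe set it shares with a second gene, 235827_at, read 5.53 and 5.20 in the miR-146a arrays against 5.20 in the vector array, so the higher value was that of replicate 1 alone.

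MAP3K7 encodes TAK1, the kinase on which the relay converges, and its 4 probe sets, all above the median, fell into 2 pairs. Probe set 206854_s_at read 8.94 and 9.06 in the miR-146a arrays against 9.04 in the vector array, and 206853_s_at read 7.74 and 7.70 against 7.79. Their differences were -0.04 and -0.07, and for the first the vector value lay between the replicates. In the other pair both arrays were below the vector: 211536_x_at read 6.90 and 6.83 in the miR-146a arrays against 7.30 in the vector array. Likewise 211537_x_at read 7.23 and 7.16 in the miR-146a arrays against 7.60 in the vector array.

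The differences of that pair were -0.44 (1.35-fold lower) for 211536_x_at and -0.40 (1.32-fold lower) for 211537_x_at. For 211536_x_at the limma adjusted p was 0.177, and 0.0471 with the unequal-replicate prior (0.0122 in its above-median version). For 211537_x_at the limma adjusted p was 0.206, and 0.0845 with the unequal-replicate prior (0.0195 in its above-median version). In single arrays, their differences from the vector exceeded that of 206854_s_at by -0.27 to -0.48. The suffix _x_at marks probe sets with probes that can also bind other transcripts, so that these 2 values need not be of TAK1 alone, and as they may share probes they are not independent. Without _x_at probe sets, 1 of the members, TAB2 210284_s_at, was 1.2-fold lower in both arrays.

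Averaging all of a gene's probe sets gave differences of 0.16 for MYD88, -0.18 for IRAK1, 0.13 for IRAK2, 0.12 for IRAK3, -0.10 for TRAF6, 0.12 for TAB1, -0.26 for TAB2, -0.13 for TAB3 and -0.24 for MAP3K7. By this summary TAB2 and MAP3K7 were the lowest, yet the probe set of highest signal gave -0.19 for TAB2 and -0.04 for MAP3K7. For IRAK1 the same 2 summaries were -0.18 and -0.01. Over the 14 probe sets above the median, from 8 genes, 9 read lower in both arrays and 3 higher in both, against 33.1% and 36.0% of all probe sets above the median. The median difference of the 14 was -0.065 (-0.075 in replicate 1 and -0.101 in replicate 2), beside 0.00 for all probe sets above the median. Probe sets of the same gene are not independent, and the 9 include both _x_at probe sets of MAP3K7, both of TRAF6 and TAB3 227357_at at -0.03. These members passed a filter on both groups' mean signal, and the counts describe them without a test.

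**Figure D3:**
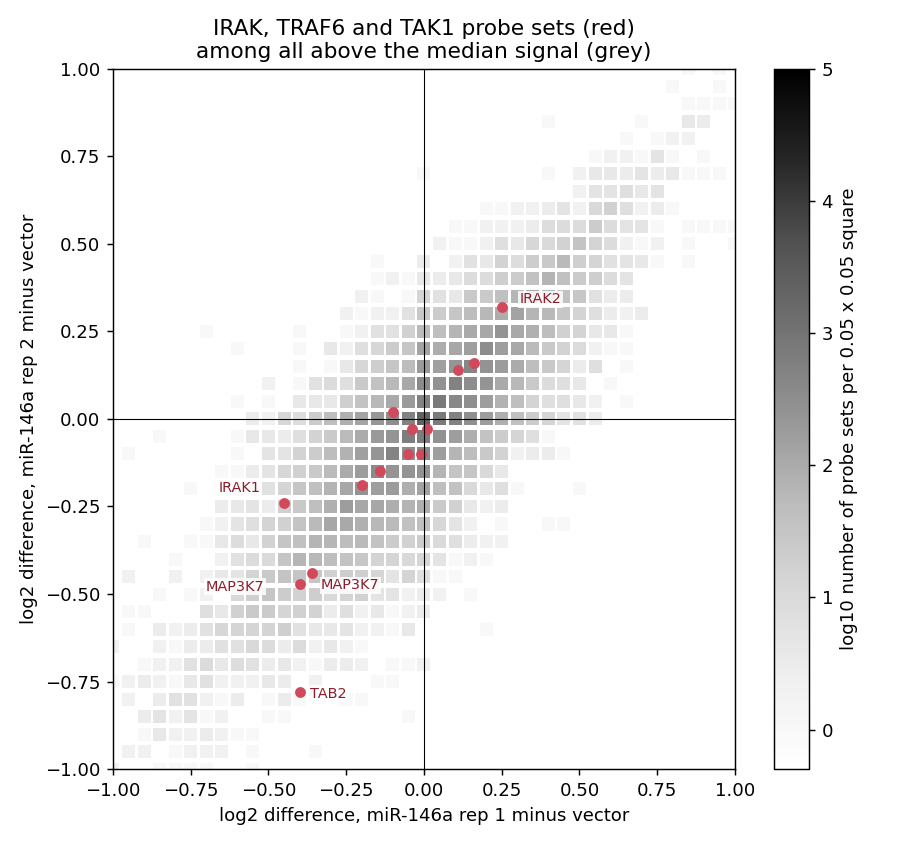
Log2 difference from the vector in miR-146a replicate 1 (horizontal) and replicate 2 (vertical) for all probe sets above the median signal (grey squares, shaded by the log10 number of probe sets; axes end at 1) and for the 14 of the IRAK, TRAF6 and TAK1 genes (red). Both axes use the same vector array, so the diagonal trend is built in; the red points run from TAB2 at -0.40 and -0.78 to IRAK2 at 0.25 and 0.32.

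The rest of the pathway was described through 5 lists of 66 genes, of which 58 had probe sets of their own, 154 in all and 107 above the median. Limma called 0 of the 154, with 16.9% at an unadjusted p under 0.05 against 20.2% of all probe sets. With the unequal-replicate prior 2 were higher and 3 lower, beside 1.38% and 1.94% of all probe sets. Dim probe sets were among both, TLR4 232068_s_at at 0.60 and CYLD 60084_at at -0.48. The other TLR4 probe sets differed by -0.06 to 0.12, and the other CYLD probe sets by -0.07 to 0.17. Of the 154, 6 were at least 1.2-fold higher in both arrays (3.90%) and 9 lower (5.84%), near the 3.87% and 4.37% of all probe sets. The median differences above the median signal were 0.003 for the 13 probe sets of receptors, -0.043 for the 13 of other adaptors, 0.00 for the 21 of ubiquitin enzymes, -0.024 for the 38 of inhibitors and -0.009 for the 22 of kinases below TAK1. A median can hide members that go both ways: of the 13 receptor probe sets above the median, 3 were at least 1.2-fold higher in both arrays (23.1%, beside 5.49% of all probe sets above the median) and 2 at least 1.2-fold lower (15.4%, beside 5.95%). These 5 probe sets come from 3 genes, IL1R2, TNFRSF11A and IL17RA.

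Among the receptors, IL1R2, a decoy that binds interleukin-1 without signalling, read lower with both of its probe sets. Probe set 211372_s_at read 6.06 and 6.16 in the miR-146a arrays against 6.59 in the vector array, and 205403_at read 6.75 and 6.79 against 7.17. The differences were -0.48 and -0.41, with limma adjusted p of 0.244 and 0.136, and 0.0201 and 0.0753 with the unequal-replicate prior. TNFRSF11A, or RANK, a receptor that signals through TRAF6, read higher with both. Probe set 238846_at read 5.66 and 5.80 in the miR-146a arrays against 5.25 in the vector array, and 207037_at read 6.28 and 6.24 against 5.93. Their limma adjusted p were 0.314 and 0.159, and 0.0199 and 0.227 with the unequal-replicate prior. IL17RA, the common interleukin-17 receptor chain, read 7.15 and 7.14 against 6.83 with 205707_at, while its other 3 probe sets differed by -0.05 to 0.27.

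Among the inhibitors, TANK, a TRAF-binding protein that restrains TRAF6 ubiquitination, held the lowest difference of the probe sets above the median signal. Probe set 210458_s_at read 5.03 and 5.21 in the miR-146a arrays against 5.72 in the vector array, a difference of -0.60 with a limma adjusted p of 0.308 and 0.00128 with the unequal-replicate prior. Its probe sets 207616_s_at and 209451_at differed by -0.27 and -0.14, and the dim 243376_at by 0.11. TAX1BP1, a cofactor of the deubiquitinase A20, read 10.55 and 10.50 against 10.85 with 200977_s_at, and differed by -0.23 with 200976_s_at. With 213786_at its mean difference was -0.26, made of -0.51 in replicate 1 and -0.01 in replicate 2. SIGIRR, a receptor-like protein that damps interleukin-1 signalling, read 9.52 and 9.51 in the miR-146a arrays against 9.22 in the vector array with 52940_at and differed by 0.32 with 218921_at. Neither TAX1BP1 nor SIGIRR passed limma (adjusted p of 0.0964 or more) or the unequal-replicate prior.

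In the remaining lists, each gene named passed 1.2-fold in both arrays with 1 probe set only. TIRAP, the adaptor that brings MyD88 to the membrane, differed by 0.26 with 1552804_a_at and by -0.26 with 1552360_a_at. It differed by -0.04 with 1554091_a_at and by -0.03 with the dim 239796_x_at. UBE2V2, a partner of the ubiquitin-conjugating enzyme UBE2N, differed by -0.35 with 228734_at, by -0.04 with 230411_at and by 0.03 with 209096_at. MAPK9, the JNK2 kinase, differed by -0.29 with 210570_x_at, against -0.07 and -0.01 for its others.

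**Figure D4:**
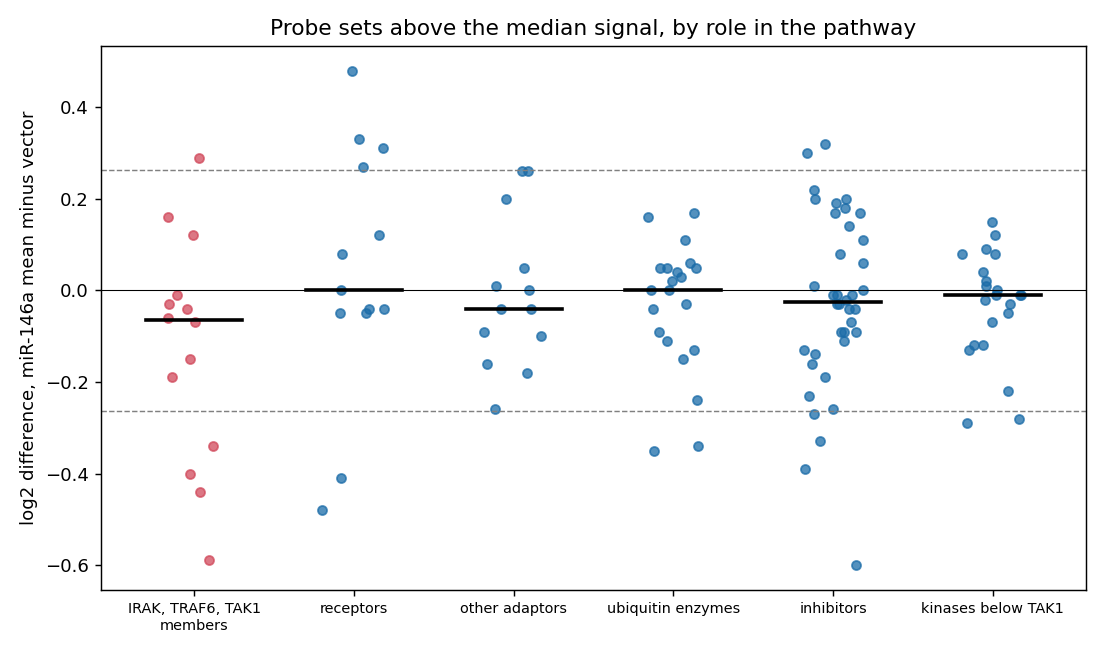
Mean log2 difference (miR-146a minus vector) of each probe set above the median signal, for the IRAK, TRAF6 and TAK1 members (red) and 5 lists of other pathway genes (blue); bars are medians and dashed lines 1.2-fold. The member median is -0.065, and the list medians lie between -0.043 and 0.003.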

How the data were processed

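Total RNA of the 3 HT29 samples was labelled as biotinylated cRNA for Affymetrix arrays, per the labels. The deposited values are log2 signals made by the authors with RMA, per the submitters' processing notes; the sources used here give neither its version nor whether other arrays were processed along. They ran from 1.95 to 14.45 over 54613 probe sets, with 62 control probe sets left out. No detection calls were used.

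Gene names came from the platform annotation, where 41091 probe sets had 1 gene and 13522 several or none. Of those with 1 gene, 41037 matched a RefSeq gene by Entrez number. The members, lists, thresholds and tests were chosen with earlier results of these data known. Differences are miR-146a mean minus vector. limma 3.58.1 (R 4.3.3; lmFit, eBayes) was fitted on all 54613 probe sets with 1 residual degree of freedom and a threshold of 0.05. The unequal-replicate prior applies squeezeVar to probe sets whose miR-146a values differ. Its estimated prior degrees of freedom were infinite, so that every probe set has the same standard error, and 15.1 in the above-median version, against 0.455 in the default.

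Named pathway genes had a probe set above the median and 1.2-fold apart in both arrays, at most 6 per list. Simulated data for this comparison had 54613 probe sets, 200 of them changed, with ties imposed as in the data. There the default recovered 0% of probe sets changed by 1 on the log2 scale. The unequal-replicate prior recovered 93% of these and 4% of those changed by 0.5, with 2 false calls among 99. All 200 changes were placed on probe sets above the median, so recovery of dim ones was not simulated. Spreads were drawn near the typical spread of probe sets of like signal, which is close to what this prior assumes. In the real data above the median, differences from the vector had an SD of 0.217 (replicate 1) and 0.212 (replicate 2). Between the miR-146a arrays it was 0.128. How much the vector array varies by itself is unknown, as it has no replicate. The simulated false-call count therefore need not hold for the calls in the real data. Promoters and microRNAs are from RefSeq. Seed matches in transcripts were not examined. Figures were drawn with matplotlib 3.10.9.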

Additional observations from a re-analysis of the deposited data

How the results depend on the processing

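The default limma fit called 0 of 54613 probe sets, 0 of the 23 members and 0 of the 154 pathway probe sets (unadjusted p under 0.05: 11058, 6 and 26). The counts were also 0 with an intensity trend in the prior, on the probe sets above the median, and after cyclic loess. With the prior from unequal replicates they were 1815, 2 and 5, and with a robust prior 5686, 1 and 10. With the unequal-replicate prior above the median, added after the data were seen, they were 2436, 3 and 6. Fits above the median hold only 27306 probe sets, 14 of the members and 107 of the pathway. The robust prior's member was MYD88, whose replicates are equal; the prior from unequal replicates called TAB2 210284_s_at and MAP3K7 211536_x_at. The number of members 1.2-fold apart in both arrays was 3, and also 3 after cyclic loess. It was 0 at 1.5-fold and 1 without _x_at probe sets (added after the data were seen). In a single miR-146a array it was 5 to 6: replicate 1 alone had 0 higher and 5 lower (7.76% and 7.52% of all probe sets), and replicate 2 alone 2 higher and 4 lower (6.3% and 7.66%). The other priors and the filter cannot alter a difference, only its p-value, so they do not test its sign. After cyclic loess, which does alter the values, none of the 23 differences changed sign. With 1 miR-146a array left out, IRAK1 201587_s_at turned to 0.01 (without replicate 2) from -0.01, and MAP3K7 206854_s_at to 0.02 (without replicate 1) from -0.04, and 4 dim probe sets (2 of IRAK2, 1 each of IRAK3 and TAB3) came to exactly 0 with 1 of the arrays. No paired analysis was possible because the vector has 1 array and no replicate number. Dim signal limits IRAK3 and the dim probe sets of IRAK2, TAB2 and TAB3.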
